A study of Gallus gallus with 4 samples.

Results

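Cells of the caudal chick trunk that carried TBXT and MSX1 transcripts, labelled caudal streak cells, are described here. A cell was chosen by its unique molecular identifiers (UMIs, counted RNA molecules): at least 2500 in all, at least 2 of TBXT and 3 of MSX1, none of SOX2, MSGN1 or HAND2, and under 10 of CHRD. This rule took 2809 of 25379 kept cells. Embryos with 4, 7, 10 and 13 somites (4S, 7S, 10S and 13S) were dissected to keep the trunk from somite 3 backwards, at least 4 embryos were collected per stage, and each stage gave 1 droplet library. The chick embryos were otherwise untreated, and the labels do not tie cells to embryos. In each library the TBXT and MSX1 cells were set against all other kept cells of that library, which hold neural, mesodermal, endodermal, notochordal, ectodermal and blood-forming cells of the same embryos.

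Trunk tissue is laid down from the caudal end of the embryo, where cells leave the primitive streak to become mesoderm. TBXT (brachyury) is the T-box factor of the streak, nascent mesoderm and notochord, and MSX1 is a homeobox gene that responds to BMP signalling and is known from caudal streak, dorsal neural tube and lateral mesoderm. FGF and WNT ligands made at the caudal end maintain growth of the axis, BMP ligands act along the streak towards lateral mesoderm, and retinoic acid from the somites acts against FGF from the front.

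The data were counts, not normalized, so levels are given as CPM, the UMIs of a gene scaled to a total of 1000000 UMIs in the summed cells. With 1 library per stage, a difference between stages has no replicate check and intervals on single libraries (95%, exact) cover counting error only. A difference between the TBXT and MSX1 cells and the other cells was measured 4 times, once per library, and was tested across all genes by edgeR with the library as a block. The p-values set that difference against a spread between these 4 libraries that edgeR estimates partly from other genes. With 3 residual degrees of freedom, a p-value can be far smaller than the 4 ratios of that gene alone would give. A p-value or SE of a gene therefore does not measure how closely its 4 ratios lie together. A sum cannot tell more cells with a transcript from more transcripts per cell. The kept cells had medians of 3758 to 8849 UMIs per library, with 7S the shallowest, and 2012 cells under the UMI minimum were left out. TBXT and MSX1 cells had a median of 7420 UMIs, against 6566 in other cells. Of the cell barcodes, 63 occurred in more than 1 library, and 13 TBXT and MSX1 cells carried one of them. SOX2 had a UMI in 605 cells, or 2.38% of those kept, so the condition of no SOX2 UMI removed few cells. Its level in other cells was 2.23 to 6.03 CPM, so a cell with no SOX2 UMI may still carry the transcript. How many TBXT and MSX1 cells did so was not tested.

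By library, 571 of 4025 cells (14.2%, interval 13.1 to 15.3) met the rule at 4S, 676 of 5909 (11.4%, 10.6 to 12.3) at 7S, 870 of 8669 (10.0%, 9.41 to 10.7) at 10S and 692 of 6776 (10.2%, 9.50 to 11.0) at 13S. The share was highest at 4S, and the intervals of 10S and 13S overlapped. The UMI minimums of the rule take more cells from a deep library, while its conditions of no SOX2, MSGN1 or HAND2 UMI take fewer. Thinning acts on both, so it also lets in cells whose SOX2, MSGN1 or HAND2 UMIs were lost. After each cell was thinned to 2500 UMIs the 4S and 7S shares were 6.36% and 7.51%, and those of 10S and 13S were 3.21% and 3.28%, so 4S and 7S changed places and both stayed above the later libraries. The tissue kept behind the third somite also lengthens with stage, and how far this sets the shares was not tested.

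**Figure D1:**
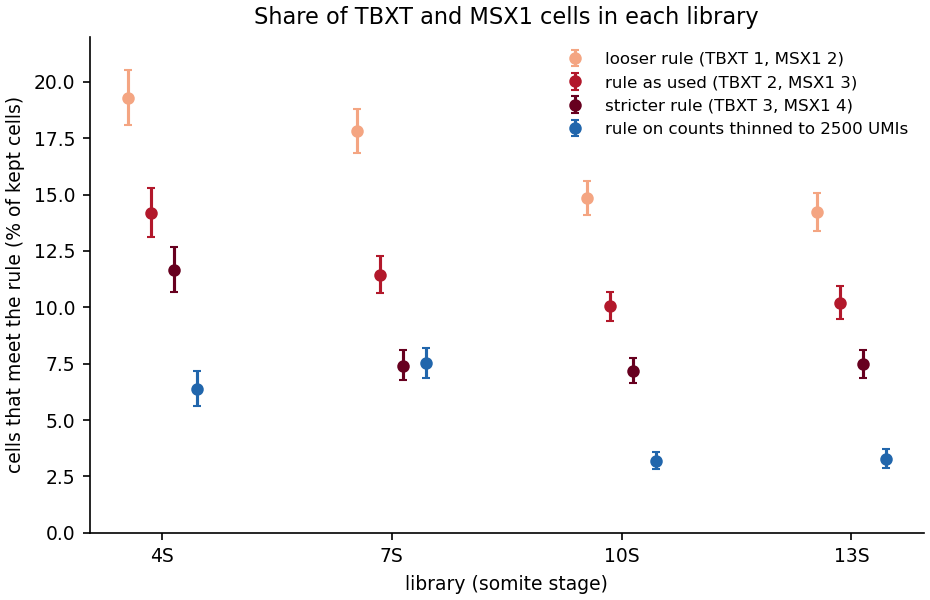
Percentage of kept cells that met the rule in each library (x axis, somite stage), under the rule as used, a looser and a stricter UMI rule, and the rule on counts thinned to 2500 UMIs per cell; bars are exact 95% binomial intervals. Under the rule as used the share was 14.2% at 4S and 10.2% at 13S, and on thinned counts the 7S library was highest at 7.51%.

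The 6 rule genes describe the selection and were not tested. Median counts in chosen cells were 4 TBXT UMIs, with a highest of 37, and 8 MSX1 UMIs, with a highest of 53. In the sums, TBXT stood at 861, 992, 564 and 588 CPM in TBXT and MSX1 cells at 4S, 7S, 10S and 13S, against 358, 254, 168 and 162 CPM in other cells. MSX1 stood at 1210, 1609, 1271 and 1273 CPM, against 581, 633, 477 and 399 CPM in other cells. CHRD, a BMP antagonist of the node and notochord, was allowed below its limit and reached 5.91 to 16.5 CPM in TBXT and MSX1 cells and 160 to 324 CPM in other cells. Just inside the threshold, 620 cells with 2 TBXT UMIs had 84.3 CPM of FGF8 and 295 CPM of WNT5A. Just outside it, 925 cells with 1 TBXT UMI had 48.8 CPM of FGF8 and 220 CPM of WNT5A. On the MSX1 side, 225 cells with 3 UMIs had 106 CPM of FGF8, and 165 cells with 2 UMIs had 117 CPM. Both UMI minimums were met by 5564 cells, of which 2457 had an MSGN1 UMI, 931 of these a single one.

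FGF8 and WNT3A, the markers named with the label and not used by the rule, were both higher. FGF8, the main FGF ligand of the growing caudal end, had 32.8, 92.3, 148 and 200 CPM in TBXT and MSX1 cells at 4S, 7S, 10S and 13S, against 14.6, 23.4, 34.6 and 48.1 CPM in other cells. The difference was 1.94 ± 0.12 on the log2 scale (SE; adjusted p = 1.57e-06). Its ratio at 4S was lower than in the later libraries. WNT3A, a canonical WNT ligand of the streak, had 36.6, 59.4, 55.8 and 67.6 CPM against 16.2, 27.6, 20.1 and 20.9 CPM in other cells, a difference of 1.43 ± 0.099 (SE; adjusted p = 2.64e-06). No library of other cells reached the lowest WNT3A level of the TBXT and MSX1 cells, while the FGF8 ranges overlapped across stages. On thinned counts FGF8 was detected in 6.83% of TBXT and MSX1 cells at 4S and 37.7% at 13S, against 0.211% of 473 LMO2 and TAL1 cells, a blood-forming set used as background with a median of 6978 UMIs before thinning. Without thinning the FGF8 shares were 22.6% at 4S and 71.4% at 13S. WNT3A was detected in 12.3% ± 3.34 (SD over the 4 libraries) of TBXT and MSX1 cells, against 0.211% of that background, and in 31.3% ± 7.77 without thinning, against 0.846%. In other cells, pooled over libraries, FGF8 was detected in 6.70% and WNT3A in 4.69% on thinned counts.

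Across all 11385 tested genes, 7.98% were higher and 8.76% were lower in TBXT and MSX1 cells at an adjusted p under 0.05. The median log2 difference of all tested genes was 0.0157. The calls were 909 higher and 997 lower, and without the 10S library 431 higher and 578 lower. Of 17 tested streak and caudal factors, 8 were higher and 3 lower, with a median log2 difference of 0.43. Against SOX2 and TBXT cells, a neighbouring set described below, 1 of 13 tested was higher and 3 were lower. SP8, a zinc finger gene of tail bud and limb, had 46.9, 158, 108 and 96.4 CPM in TBXT and MSX1 cells, against 11.8, 43.4, 27.7 and 28.7 CPM in other cells (log2 difference 1.93 ± 0.057, SE; adjusted p = 4.59e-09). EVX1, a homeobox gene of the caudal streak, had 105, 135, 110 and 108 CPM against 36.1, 58.4, 50.8 and 47.0 CPM (1.30 ± 0.064; adjusted p = 2.60e-07). The SP8 and EVX1 levels did not overlap between the sets of cells. CDX2, a caudal homeobox gene upstream of trunk HOX genes, was higher by 1.24 ± 0.040 (adjusted p = 9.38e-09), with 289 to 481 CPM in TBXT and MSX1 cells and 123 to 199 CPM in other cells. GREB1 was higher by 1.31 ± 0.075 (adjusted p = 6.82e-07). MESP1, a factor of nascent mesoderm, had 163, 129, 41.3 and 33.4 CPM at 4S, 7S, 10S and 13S, against 84.4, 56.1, 21.1 and 25.8 CPM (0.94 ± 0.098; adjusted p = 6.74e-05). It was higher in 4 of 4 libraries, and in both sets of cells its 10S and 13S levels lay below its 4S and 7S levels. TBX6, a paraxial mesoderm factor, was lower by -0.59 ± 0.089 (adjusted p = 0.000956), but when the rule was applied to thinned counts, an alternative chosen after seeing the data, its difference was -0.041 with an adjusted p of 0.889. The rule leaves out cells with an MSGN1 UMI, and these cells sit among the other cells.

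Of 11 tested FGF ligand genes, 6 were higher and 2 were lower, with a median log2 difference of 0.68. FGF19 had 186, 322, 212 and 214 CPM in TBXT and MSX1 cells at 4S, 7S, 10S and 13S, against 81.3, 97.5, 60.0 and 49.9 CPM in other cells. The log2 difference was 1.76 ± 0.12 (SE; adjusted p = 2.01e-06), and its ranges did not overlap. FGF3 had 4.51 to 11.8 CPM against 1.98 to 3.25 CPM (1.79 ± 0.18; adjusted p = 4.20e-05), and FGF4 had 3.61 to 8.61 CPM against 1.07 to 1.86 CPM (1.87 ± 0.23; adjusted p = 0.000199). FGF18 differed less, by 0.61 ± 0.059 (adjusted p = 3.89e-05), with 36.5 to 124 CPM in TBXT and MSX1 cells and 20.8 to 86.9 CPM in other cells. FGF10, a ligand of lateral and limb mesoderm, was lower by -0.56 ± 0.089 (adjusted p = 0.00127), and it lost the call under the rule on thinned counts with an adjusted p of 0.321.

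Among 17 tested FGF receptors and targets, 4 were higher and 4 lower, the lower ones being receptors. SPRY2, an FGF target that damps the pathway, had 211, 1146, 358 and 421 CPM in TBXT and MSX1 cells, against 85.3, 560, 150 and 178 CPM in other cells (log2 difference 1.25 ± 0.046, SE; adjusted p = 3.09e-08). Both sets of cells were highest at 7S, and within each library the ratio was close to the others. IL17RD (SEF), another FGF feedback gene, was higher by 1.03 ± 0.075 (adjusted p = 4.43e-06), and ETV1, an ETS factor downstream of FGF, by 0.56 ± 0.076 (adjusted p = 0.000450). FGFR3 had 32.7, 24.2, 14.9 and 3.55 CPM at 4S, 7S, 10S and 13S, against 189, 454, 244 and 129 CPM in other cells (-3.67 ± 0.24; adjusted p = 1.93e-06). FGFRL1, a receptor that lacks the kinase domain, had 1.62 to 3.72 CPM against 21.8 to 34.9 CPM (-3.34 ± 0.16; adjusted p = 2.26e-07). FGFR2 and FGFR4 were the other receptors called lower, and FGFR1 was not called.

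Of 12 tested WNT ligand genes, 4 were higher and 5 lower, with a median log2 difference of -0.61. The 4 higher ones were WNT3A, WNT5A, WNT5B and WNT8A. WNT8A, a canonical ligand of the early streak, had 105, 77.7, 39.3 and 18.7 CPM in TBXT and MSX1 cells at 4S, 7S, 10S and 13S, against 38.2, 30.4, 20.2 and 9.01 CPM in other cells (1.27 ± 0.084, SE; adjusted p = 1.98e-06). It was higher within every library and lower at each later stage in both sets of cells, the opposite order to WNT3A between 4S and 13S. WNT5A, a non-canonical ligand of the elongating axis, had 227, 267, 302 and 346 CPM against 157, 178, 163 and 159 CPM (0.84 ± 0.087; adjusted p = 6.13e-05). WNT5B had 56.9 to 127 CPM against 33.3 to 82.6 CPM (0.82 ± 0.063; adjusted p = 5.99e-06). WNT1, WNT2B, WNT4, WNT6 and WNT11 were lower, and WNT3 had 2 UMIs in all 2809 TBXT and MSX1 cells and 5 UMIs in other cells.

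Of 29 tested WNT receptors, targets and inhibitors, 7 were higher and 8 lower. AXIN2, a direct feedback target of canonical WNT signalling, had 73.8, 93.3, 88.3 and 90.01 CPM in TBXT and MSX1 cells, against 52.1, 60.2, 51.8 and 53.2 CPM in other cells (0.72 ± 0.062, SE; adjusted p = 1.61e-05). APCDD1, a membrane inhibitor of WNT, was higher by 1.24 ± 0.088 (adjusted p = 3.24e-06), TCF7 by 1.02 ± 0.084 (adjusted p = 1.07e-05) and PRICKLE1, of the planar polarity branch, by 0.72 ± 0.12 (adjusted p = 0.00212). LEF1 and TCF7L2, other factors of the TCF family, were among those called lower, as was the secreted DKK3, by -0.95 ± 0.070 (adjusted p = 4.58e-06). AXIN2 and APCDD1 levels did not overlap between the sets of cells.

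BMP2, BMP4 and BMP7 were the 3 called higher of 11 tested BMP ligands and receptors, while BMP5, BMP6 and BMPR1B were called lower. BMP2 had 52.9, 59.4, 45.7 and 54.4 CPM in TBXT and MSX1 cells, against 32.2, 29.2, 24.2 and 23.1 CPM in other cells (1.01 ± 0.087, SE; adjusted p = 1.45e-05). BMP4 had 34.7, 52.1, 48.7 and 59.6 CPM against 22.1, 37.3, 37.6 and 41.1 CPM (0.55 ± 0.063; adjusted p = 0.000127). Both ligands were higher in 4 of 4 libraries, BMP2 without overlap. BMP7 was present at 7.95 to 14.3 CPM against 4.38 to 8.70 CPM (0.81 ± 0.12; adjusted p = 0.00101), and its call was lost under the rule on thinned counts (adjusted p = 0.236).

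Of 15 tested BMP targets, 6 were higher and 3 lower, with a median log2 difference of 0.31. The inhibitors of DNA binding ID1 to ID4, immediate targets of BMP signalling, were all among the 6. ID1 had 1491, 1411, 804 and 864 CPM in TBXT and MSX1 cells at 4S, 7S, 10S and 13S, against 1039, 1091, 636 and 727 CPM in other cells (0.41 ± 0.037, SE; adjusted p = 1.89e-05). ID2 was higher by 0.35 ± 0.042 (adjusted p = 0.000159) and ID3 by 0.26 ± 0.050 (adjusted p = 0.00465). ID4 had 140, 151, 184 and 248 CPM against 77.5, 80.5, 80.6 and 102 CPM (1.12 ± 0.074; adjusted p = 2.06e-06), the largest difference of the 4. MSX2, a paralogue of the rule gene MSX1, was higher by 0.78 ± 0.099 (adjusted p = 0.000252), and DLX5, a homeobox target at the border of the neural plate, by 1.14 ± 0.082 (adjusted p = 3.77e-06). MSX1 itself belongs to this list and was left out, since it chose the cells. Targets that vary with MSX1 from cell to cell can differ through that choice. GATA3, HAND1 and HEY1 were lower.

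Of 10 tested BMP inhibitors, 2 were higher and 3 lower. FST (follistatin), which binds activins and BMPs, had 6.86, 4.32, 2.79 and 0.844 CPM in TBXT and MSX1 cells, against 136, 147, 95.0 and 41.9 CPM in other cells (-4.78 ± 0.12, SE; adjusted p = 2.73e-09). NBL1 was lower by -2.51 ± 0.11 (adjusted p = 1.03e-07) and FSTL1 by -0.72 ± 0.075 (adjusted p = 6.74e-05). BAMBI, a membrane pseudoreceptor induced by BMP, had 153, 135, 124 and 139 CPM against 136, 97.2, 72.3 and 70.6 CPM (0.65 ± 0.11; adjusted p = 0.00227). NOG (noggin) was the other inhibitor called higher. In the nodal pathway, 1 of 6 tested genes was higher and 3 were lower, among them the ligand GDF3 by -1.81 ± 0.095 (adjusted p = 4.12e-07) and LEFTY1. The 1 higher gene, SMAD2 (listed as SMAD2Z), differed by 0.25 ± 0.073 (adjusted p = 0.0381), was higher in 3 of 4 libraries, and lost its call under 9 alternatives, among them leaving out the 4S, the 7S or the 10S library (adjusted p = 0.161, 0.198 and 0.145).

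**Figure D2:**
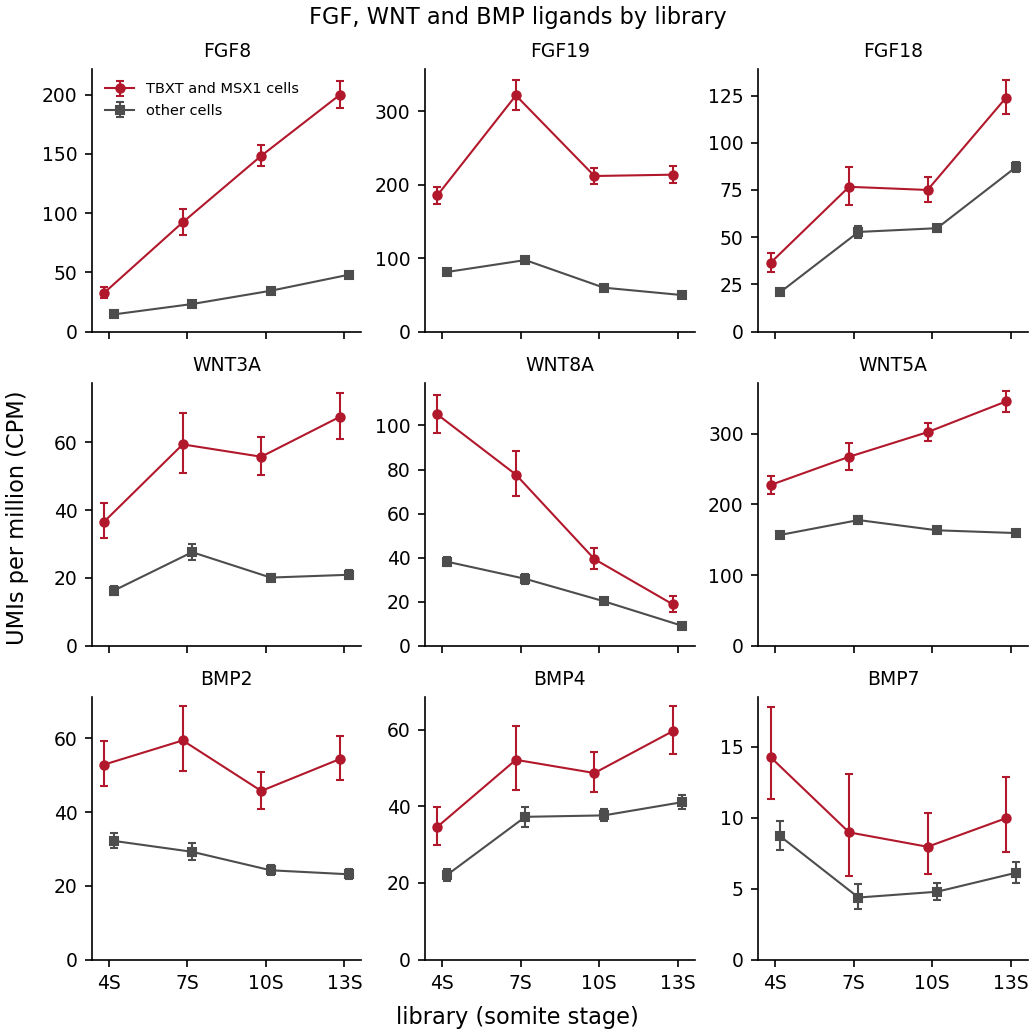
Levels of 9 ligands in TBXT and MSX1 cells (circles) and other cells (squares) in CPM, by library; bars are exact 95% Poisson intervals and cover counting error only. FGF8 stood at 32.8 CPM at 4S and 200 CPM at 13S in TBXT and MSX1 cells, and WNT8A at 105 CPM and 18.7 CPM. All 9 ligands lay above other cells in every library, but only ligands called higher were drawn. Ligands called lower, such as WNT4, FGF10 and BMP5, are not shown.

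Of 13 tested genes of retinoic acid supply and response, 10 were lower, 2 were not called, and CYP26A1 was higher. CYP26A1, the enzyme that degrades retinoic acid, had 30.5, 73.7, 85.8 and 103 CPM in TBXT and MSX1 cells at 4S, 7S, 10S and 13S, against 8.73, 21.2, 14.5 and 17.1 CPM in other cells. Its difference of 2.31 ± 0.14 (SE; adjusted p = 1.11e-06) was the largest rise among called genes with a gene symbol that reached the naming minimum of 20 CPM. ALDH1A2, the enzyme that makes retinoic acid in somites, had 29.6, 6.64, 3.77 and 0.676 CPM against 300, 130, 88.9 and 64.4 CPM (-3.94 ± 0.21; adjusted p = 4.26e-07). DHRS3 was lower by -2.74 ± 0.23 (adjusted p = 1.12e-05), RDH10, which makes the precursor retinal, by -2.47 ± 0.13 (adjusted p = 4.62e-07), and the receptor RARB by -1.43 ± 0.13 (adjusted p = 2.25e-05). The CYP26A1 and ALDH1A2 levels did not overlap between the sets of cells, in opposite directions.

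No tested HOX gene was called lower than in other cells. Of 16 tested genes of groups 1 to 6, 9 were higher and none lower. Of 11 tested genes of groups 7 to 13, 10 were higher and none lower, with a median log2 difference of 1.31, against 0.53 for groups 1 to 6. Against SOX2 and TBXT cells, a neighbouring set described below, 1 of 9 tested genes of groups 7 to 13 was higher. In that comparison 3 were lower, HOXA7 and HOXB9 among them. HOXA7 had 252, 1157, 1768 and 2138 CPM in TBXT and MSX1 cells at 4S, 7S, 10S and 13S, against 46.9, 293, 596 and 928 CPM in other cells (1.80 ± 0.14, SE; adjusted p = 5.36e-06). HOXB9 had 7.22, 62.8, 201 and 376 CPM against 2.01, 15.9, 58.6 and 154 CPM (1.68 ± 0.096; adjusted p = 7.02e-07). HOXC8 had 0.541, 13.3, 58.3 and 130 CPM, the first from 3 UMIs, against 0.0314, 2.70, 16.0 and 52.5 CPM (1.71 ± 0.14; adjusted p = 8.01e-06). At each stage the TBXT and MSX1 cells stood above the other cells, and their HOXB9 level at 10S lay above that of other cells at 13S. HOXA9 was higher by 1.37 ± 0.090 (adjusted p = 1.93e-06) and HOXB7 by 1.31 ± 0.092 (adjusted p = 3.01e-06). In groups 1 to 6, HOXA6 was higher by 1.06 ± 0.057 (adjusted p = 4.36e-07), HOXA5 by 0.84 ± 0.061 (adjusted p = 3.88e-06) and HOXB1 by 0.69 ± 0.055 (adjusted p = 7.63e-06).

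Of 15 HOX genes of groups 1 to 6 with at least 50 UMIs in TBXT and MSX1 cells, 11 stood higher at 13S than at 4S. Of 12 such genes of groups 7 to 13, all 12 did. The share of all genes higher at 13S than at 4S is not given here, so these counts describe the listed genes only. HOXC9, a group 9 gene, had 3, 19, 218 and 487 UMIs at 4S, 7S, 10S and 13S, or 0.541, 6.31, 30.4 and 82.2 CPM. HOXA10 stood at 2.17, 1.66, 4.32 and 30.1 CPM, and HOXC10 had no UMI at 4S or 7S, 6 at 10S and 57 at 13S. The HOXC10 counts of 0 allow up to 0.666 CPM at 4S and 1.23 CPM at 7S, below the 13S level of 9.63 CPM (interval 7.29 to 12.5). HOXB8 had 231, 214, 393 and 477 CPM, while HOXB7 was highest at 7S, with 198, 715, 428 and 460 CPM. Within groups 7 to 13, HOXB7 and HOXA13 were the genes not highest at 13S. HOXA4 had 71.1, 170, 180 and 245 CPM and HOXC6 had 0.902, 8.96, 17.0 and 33.1 CPM (groups 4 and 6), both highest at 13S. Genes lower at 13S than at 4S included HOXB1, HOXB2 and HOXB5. HOXB1 had 292, 351, 229 and 202 CPM and HOXB5 78.9, 110, 69.5 and 60.3 CPM, both lowest at 13S.

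**Figure D3:**
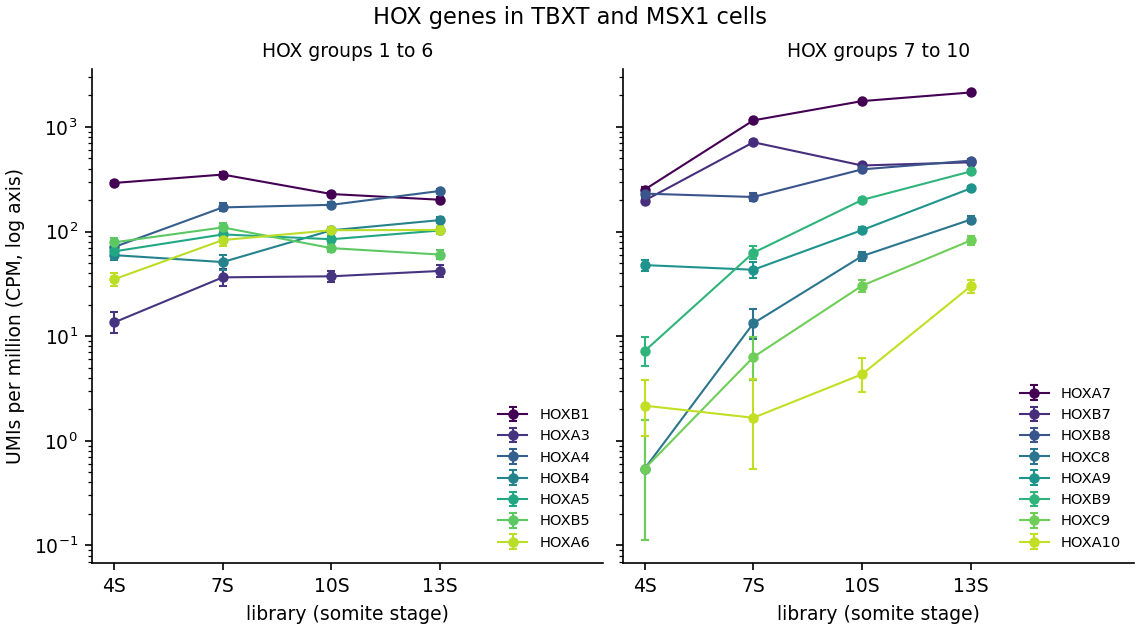
HOX genes of groups 1 to 6 (left) and 7 to 10 (right) in TBXT and MSX1 cells by library, in CPM on a log axis; bars are exact 95% Poisson intervals. HOXB9 stood at 7.22 CPM at 4S and 376 CPM at 13S, and HOXB1 at 292 CPM and 202 CPM.

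Among 2570 genes with a symbol and enough counts, 4.51% were higher at each step from 4S to 13S within the TBXT and MSX1 cells and 12.4% were lower at each step, as a description of 4 libraries. The 6 largest rises by the naming rule were HOXB9, GREB1, HOXA7, HOXD8, FGF8 and GNG10. GREB1 stood at 18.8, 130, 232 and 281 CPM, HOXD8 at 17.7, 29.2, 61.8 and 135 CPM and GNG10 at 23.1, 50.1, 70.6 and 124 CPM. GREB1 moved alike in other cells, where its 13S level was 12.2 times that at 4S, against 15.0 times in TBXT and MSX1 cells. By the same ratio HOXB9, HOXA7 and HOXD8 rose more in other cells, and FGF8 and GNG10 rose less. The 6 largest falls were NOXO1, CFC1, CACNG3, ETS1, CA2 and GATA2. All but CA2 also fell in other cells, by less. There the 4S level was 15.6 times that at 13S for NOXO1, 19.0 for CACNG3, 6.94 for CFC1, 4.2 for GATA2 and 1.88 for ETS1. In TBXT and MSX1 cells these ratios were 49.9, 25.1, 47.4, 12.0 and 14.7. NOXO1, an organizer subunit of NADPH oxidase, stood at 455, 282, 65.4 and 9.12 CPM. CFC1, the nodal co-receptor cryptic, stood at 208, 103, 59.3 and 4.39 CPM. GATA2, a factor of lateral and extraembryonic mesoderm and blood, stood at 120, 45.2, 27.5 and 9.96 CPM, and ETS1, of endothelial precursors, at 52.0, 21.9, 13.1 and 3.55 CPM. The summed level of 11 blood and endothelium markers in the TBXT and MSX1 cells followed the same order, with 378, 112, 89.4 and 36.6 CPM, against 397, 380, 267 and 254 CPM in other cells. None of the 11 was at 0 UMIs in the chosen cells and 1 lay under 1 CPM, and the part of such cells in these falls was not tested.

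Whether the ratio of TBXT and MSX1 cells to other cells shifted with somite number was tested across the same 11385 genes. The ratio rose in 0.659% of them and fell in 1.09%, at an adjusted p under 0.05. This fit had 2 residual degrees of freedom, so its spread was estimated largely across genes. NOTO, a homeobox gene of node and notochord, had log2 ratios of -1.32, -0.41, -0.049 and 0.71 at 4S, 7S, 10S and 13S, a change of 2.06 over 9 somites (adjusted p = 3.72e-05). RASGRP3 changed by 1.40 (adjusted p = 3.22e-05), DACH1 by 1.23 (adjusted p = 3.72e-05), MID1IP1 by 1.00 (adjusted p = 0.000150), NTM by 1.76 (adjusted p = 0.000396) and BAMBI by 0.89 (adjusted p = 0.000401). NOTO and DACH1 thus passed from below to above the other cells. From 4S to 13S the NOTO level changed by a factor of 1.49 in TBXT and MSX1 cells and 0.36 in other cells. For NTM the factors were 1.68 and 0.54. BAMBI fell in both sets, by factors of 0.91 and 0.52. RASGRP3, DACH1 and MID1IP1 rose more in the TBXT and MSX1 cells than in other cells. CA2, a carbonic anhydrase, had log2 ratios of 1.01, -0.53, -1.62 and -2.95, a change of -4.01 (adjusted p = 4.06e-08). FABP3 changed by -3.45, GATA5 by -2.44 (adjusted p = 9.77e-07 each), PTN by -1.65 (adjusted p = 3.40e-06) and CLEC19A by -1.19 (adjusted p = 5.37e-05). GATA5, of endoderm and lateral mesoderm, had 103, 37.2, 15.8 and 9.79 CPM in TBXT and MSX1 cells, against 129, 89.9, 64.9 and 66.1 CPM in other cells.

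The HOX excess over other cells shrank for several genes. HOXA7 had log2 ratios of 2.41, 1.98, 1.57 and 1.20 at 4S, 7S, 10S and 13S, a change of -1.16 over 9 somites (adjusted p = 9.77e-07), while its level rose in both sets of cells. HOXB7 changed by -0.72 (adjusted p = 0.00123), HOXB8 by -1.18 (adjusted p = 0.00226), HOXC8 by -1.58 (adjusted p = 0.0136) and HOXB9 by -0.90 (adjusted p = 0.0376). The HOXC8 ratio at 4S rests on very few UMIs in both sets of cells. HOXA9 changed by 0.54 and did not pass (adjusted p = 0.0817). Among signalling genes the ratio of FGF19 shifted by 0.91 (adjusted p = 0.000880), that of CYP26A1 by 1.00 (adjusted p = 0.0161) and that of WNT5A by 0.67 (adjusted p = 0.00163). FGF8 shifted by 0.74 and WNT3A by 0.65, neither past the threshold (adjusted p = 0.0904 and 0.0560).

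Epithelial and mesenchymal genes were both present. Of 15 tested epithelial genes, 3 were higher (CDH1, EPCAM and CLDN1) and 3 lower. CLDN1, a tight junction protein, had 820, 721, 516 and 209 CPM in TBXT and MSX1 cells at 4S, 7S, 10S and 13S, against 265, 243, 179 and 118 CPM in other cells (1.45 ± 0.0999, SE; adjusted p = 2.71e-06). EPCAM, an epithelial adhesion protein, had 278, 221, 161 and 162 CPM against 149, 123, 113 and 114 CPM (0.73 ± 0.063; adjusted p = 1.41e-05), without overlap. Of 16 tested mesenchymal and transition genes, 9 were lower and 2 higher. TWIST1 was lower by -4.32 ± 0.24 (adjusted p = 5.75e-07), SNAI1 by -2.29 ± 0.12 (adjusted p = 3.77e-07), CDH11 by -2.13 ± 0.081 (adjusted p = 3.52e-08), ZEB2 by -0.95 ± 0.085 (adjusted p = 1.96e-05) and FN1 by -0.54 ± 0.098 (adjusted p = 0.00308). The 2 called higher were CDH2 (N-cadherin), the main cadherin of mesoderm and neural plate, and ADAMTS1. On thinned counts CDH2 was detected in 67.7% ± 7.03 of TBXT and MSX1 cells (SD, n = 4 libraries), against 33.4% of LMO2 and TAL1 cells, and without thinning in 87.6% ± 1.06, against 57.5%. CDH1 (E-cadherin) was detected in 3.62% ± 0.951 on thinned counts, against 0.423%, and in 9.89% ± 1.71 without thinning, against 0.634%. The shares in other cells, pooled over libraries, were nearer: CDH2 56.0% and CDH1 2.73% on thinned counts, and 76.1% and 5.72% without thinning. At 2 or more UMIs on thinned counts, CDH1 was found in 0.26% of TBXT and MSX1 cells and 0.43% of other cells.

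CLDN1 split the chosen cells. On thinned counts it was detected in 61.7%, 56.8%, 53.0% and 27.9% of TBXT and MSX1 cells in the 4S, 7S, 10S and 13S libraries, against 3.17% of LMO2 and TAL1 cells. Without thinning these CLDN1 shares were 81.6%, 64.5%, 70.6% and 52.2%, against 9.09%. MESP1 was detected in 27.9%, 24.0%, 9.54% and 7.80%, against 0.423% of the background cells, and without thinning in 52.0%, 32.4%, 17.8% and 16.5%, against 1.06%. In other cells, pooled over libraries, CLDN1 was detected in 18.9% and MESP1 in 6.51% on thinned counts. Both genes were detected in 14.9%, 8.58%, 2.64% and 0.867% of cells on thinned counts. The product of their single shares was larger in every library, at 17.2%, 13.6%, 5.055% and 2.18%. The cells were therefore described by their CLDN1 count, a split chosen after its level was seen and given with no test: 1052 cells had at least 4 UMIs, 825 had 1 to 3 and 932 had none. Cells with at least 4 made up 57.3%, 32.1%, 44.5% and 17.5% of TBXT and MSX1 cells in the same order of stages. Their median depth was 8137 UMIs, against 6786 in cells with none, so depth moves with this split.

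Several genes stood higher in cells with at least 4 CLDN1 UMIs. NOTO, of the node, had 31.2, 41.2, 43.9 and 73.3 CPM in them at 4S, 7S, 10S and 13S, against 1.87, 5.23, 5.52 and 4.27 CPM in cells with none. F2RL1, a receptor cleaved by proteases, had 84.2, 121, 83.4 and 44.8 CPM against 6.54, 15.7, 24.1 and 14.8 CPM, and NEFM, a neurofilament gene, 10.3, 36.8, 52.3 and 54.0 CPM against 0, 8.37, 10.0 and 9.71 CPM. NKX1-2, a preneural homeobox gene, had 8.73 to 23.2 CPM against 0.935 to 5.23 CPM. None of these 4 genes overlapped between cells with at least 4 CLDN1 UMIs and cells with none, NEFM only narrowly (10.3 against 10.0 CPM). Cells with 1 to 3 CLDN1 UMIs had 0 to 37.1 CPM of NEFM and 0 to 10.7 CPM of NKX1-2, overlapping both of those sets. Their NOTO level reached 31.2 CPM at 13S, level with the lowest of the cells with at least 4. Other genes stood higher in cells with no CLDN1 UMI. TBX6 had 14.7, 4.38, 3.47 and 6.94 CPM in cells with at least 4 CLDN1 UMIs, against 26.2, 25.1, 32.1 and 32.6 CPM in cells with none. KDR, the VEGF receptor of endothelial precursors, had 34.9, 7.01, 3.18 and 3.09 CPM against 189, 51.2, 21.6 and 9.32 CPM, and GATA2 had 69.9, 10.5, 16.8 and 6.94 CPM against 220, 92.0, 54.2 and 14.4 CPM. MESP1 stood at 129 CPM against 146 CPM at 4S, where cells with 1 to 3 CLDN1 UMIs had 262 CPM, and at 6.17 CPM against 61.4 CPM at 13S. FGF8 and WNT3A did not follow the split alike: FGF8 had 42.4 CPM against 10.3 CPM at 4S but 192 CPM against 189 CPM at 13S, and WNT3A means were 53.2 ± 10.9 CPM against 52.8 ± 16.7 CPM (SD, n = 4 libraries). LFNG, a modifier of Notch in presomitic mesoderm, had 130, 174, 117 and 130 CPM in cells with at least 4 CLDN1 UMIs, against 45.8, 89.9, 62.8 and 123 CPM in cells with none and so stood higher with CLDN1. DLL1, a Notch ligand, had 327, 531, 248 and 189 CPM against 77.6, 474, 284 and 334 CPM, higher with CLDN1 at 4S and 7S and lower at 10S and 13S.

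**Figure D4:**
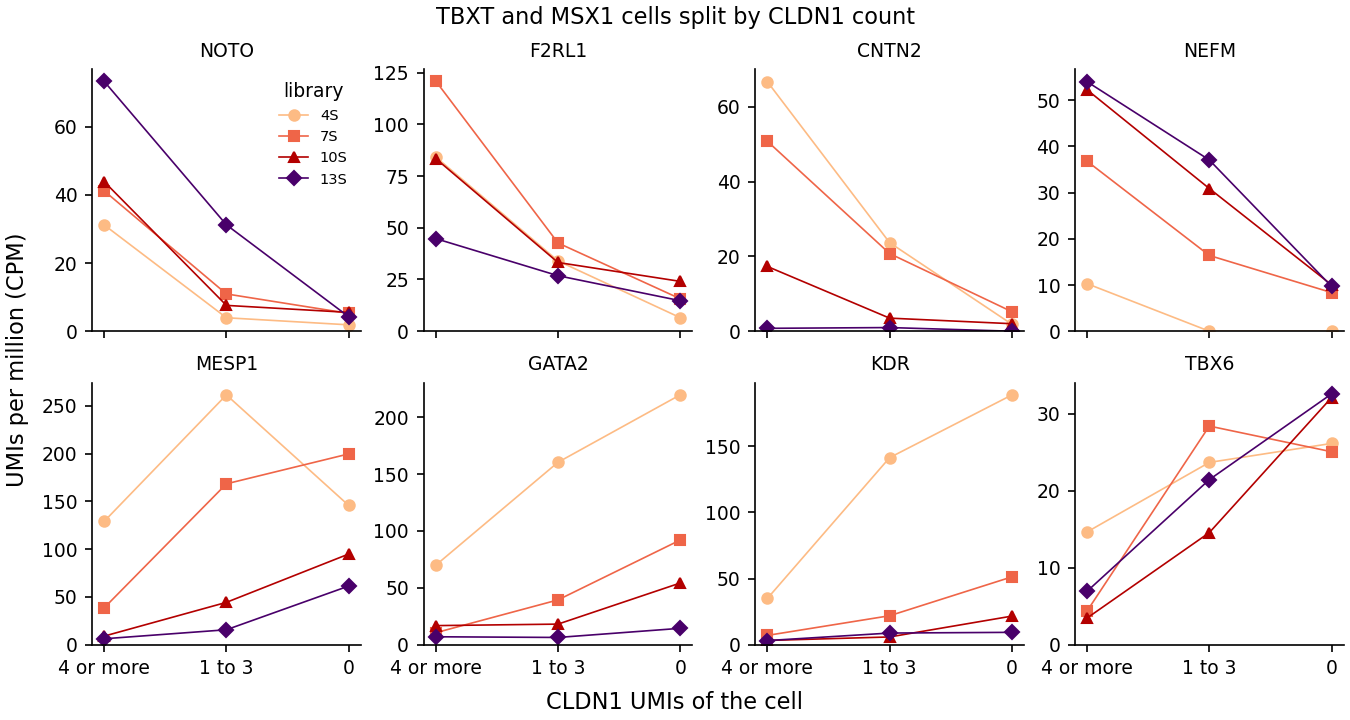
Levels of 8 genes in TBXT and MSX1 cells split by the number of CLDN1 UMIs per cell (x axis), in CPM, with 1 line per library and no error bars. NOTO, F2RL1, CNTN2 and NEFM stood higher with CLDN1, and GATA2, KDR and TBX6 stood higher without it.

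Of 17 tested lateral and extraembryonic genes, 10 were lower and none higher, with a median log2 difference of -1.31. PRRX1 was lower by -2.83 ± 0.14 (adjusted p = 2.65e-07), OSR1, of intermediate and lateral mesoderm, by -3.02 ± 0.18 (adjusted p = 1.18e-06), LMO2 by -1.93 ± 0.28 (adjusted p = 0.000685) and GATA5 by -1.31 ± 0.27 (adjusted p = 0.00617). The 8 lateral plate markers summed to 79.2 to 184 CPM, against 184 to 228 CPM in other cells, with 3 of them under 1 CPM. HAND2 was a rule gene and its absence was set by the choice. Of 21 tested paraxial and segmentation genes, 6 were higher and 11 lower. DLL1, a Notch ligand of the caudal epiblast and presomitic mesoderm, had 255, 530, 282 and 302 CPM against 210, 297, 168 and 203 CPM (0.65 ± 0.077, SE; adjusted p = 0.000152). The somite markers were at the other end: 7 of them summed to 23.3 to 30.9 CPM, against 467 to 652 CPM in other cells.

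The 12 largest falls among genes with a symbol included several somite genes. FOXC2, a forkhead factor of somites, had 2.89, 1.66, 1.26 and 1.18 CPM in TBXT and MSX1 cells, against 67.7, 77.8, 61.3 and 67.8 CPM in other cells (-5.24 ± 0.14, SE; adjusted p = 2.93e-09). MEOX1 (-4.90 ± 0.10; adjusted p = 3.59e-10) and TCF15 (-4.33 ± 0.081; adjusted p = 2.77e-10), both of somites, followed, with FST, TWIST1, ALDH1A2 and FGFR3 as above. NR2F2 was lower by -4.24 ± 0.12 (adjusted p = 2.93e-09), NPY by -4.45 ± 0.13 (adjusted p = 3.50e-09), CDH20 by -4.42 ± 0.15 (adjusted p = 1.39e-08), IRX1 by -4.34 ± 0.25 (adjusted p = 6.52e-07) and POSTN (periostin) by -3.51 ± 0.23 (adjusted p = 1.91e-06). Being lower in 4 of 4 libraries was a condition for naming these 12 genes.

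The 12 largest rises among genes with a symbol were CYP26A1, FGF8, SP8, F2RL1, RAI14, HOXA7, FGF19, HOXC8, EPHA1, HOXB9, APOD and VAV3. EPHA1, an ephrin receptor, had 52.7, 82.0, 61.1 and 49.0 CPM in TBXT and MSX1 cells, against 19.2, 26.2, 18.8 and 13.9 CPM in other cells (1.70 ± 0.075, SE; adjusted p = 1.21e-07). VAV3, a guanine nucleotide exchange factor, had 31.2 to 41.8 CPM against 12.4 to 13.5 CPM (1.55 ± 0.084; adjusted p = 4.62e-07). Both stood clear of the other cells. F2RL1 was higher by 1.84 ± 0.095 (adjusted p = 3.77e-07), RAI14 by 1.81 ± 0.080 (adjusted p = 1.21e-07), and APOD, a lipocalin, by 1.62 ± 0.12 (adjusted p = 5.36e-06), falling with stage in both sets of cells.

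The summed notochord markers, 8 genes, came to 30.9, 42.2, 43.4 and 55.9 CPM in TBXT and MSX1 cells at 4S, 7S, 10S and 13S, against 86.7, 74.7, 64.0 and 52.7 CPM in other cells, lower except at 13S, and 9 endoderm markers came to 19.9 to 59.9 CPM, against 96.8 to 229 CPM. The rule set a limit on CHRD, so notochord genes that vary with CHRD can be lower through the choice. The sum of 8 neural markers was higher in every library, at 840, 793, 634 and 248 CPM against 283, 368, 338 and 218 CPM, but CLDN1 supplied most of it. Without CLDN1 the other 7 summed to 20.4, 71.7, 118 and 38.3 CPM in TBXT and MSX1 cells, against 18.7, 125, 159 and 99.5 CPM in other cells, so they stood lower in 3 of 4 libraries. Of the 8, CLDN1 and NKX1-2 were called higher and 4 lower. PAX6, of the differentiating neural tube, was lower by -2.49 ± 0.13 (adjusted p = 4.26e-07). Surface ectoderm markers summed to 440, 414, 343 and 278 CPM against 325, 398, 442 and 526 CPM, higher at 4S and 7S and lower at 10S and 13S. Of 10 tested, DLX5, EPCAM and CDH1 were higher and 3 were lower, KRT7 by -2.04 ± 0.23 (adjusted p = 0.000121). EGFL7, an endothelial gene, was the 1 higher gene of 11 blood and endothelium markers, 8 of which were lower. It had 91.3, 37.5, 20.8 and 10.6 CPM against 38.6, 19.0, 14.8 and 14.5 CPM (0.73 ± 0.19, SE; adjusted p = 0.0240). It lost the call without the 4S, the 7S or the 10S library (adjusted p = 0.171, 0.125 and 0.0724).

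Differences in cell cycle genes were small. Of 17 tested S phase genes, 7 were called higher and none lower, with a median log2 difference of 0.14. RRM2, a subunit of ribonucleotide reductase, differed by 0.18 ± 0.037 (SE; adjusted p = 0.00546), and MCM2, MCM4, CDC6 and RRM1 by 0.17 to 0.19. The calls of those 4 were each lost under 9 or 10 alternatives, MCM4 without the 4S, 7S or 10S library among them (adjusted p = 0.103, 0.107 and 0.223), and that of RRM2 without the 10S library (adjusted p = 0.0810). Of 15 tested G2 and M phase genes none was called in either direction. Stress genes, which dissociation can raise, were 5 lower and 2 higher of 14, with JUN lower by -0.67 ± 0.090 (adjusted p = 0.000384) and HSPH1 higher by 0.55 ± 0.046 (adjusted p = 1.25e-05).

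Cells with at least 1 SOX2 and 2 TBXT UMIs, the same limits on MSGN1, HAND2 and CHRD, and any MSX1 count, were the first neighbouring set. Such coexpression is known from neuromesodermal progenitors, which give rise to spinal cord and paraxial mesoderm. They were 143 cells (12, 16, 54 and 61 at 4S, 7S, 10S and 13S), so their sums are shallow. Of 7489 tested genes, 1.13% were higher and 0.761% were lower in the TBXT and MSX1 cells. The 85 higher and 57 lower calls became 52 and 29 without the 10S library, and 58 and 35 without the 13S library. Of 9 tested BMP targets, 7 were higher and none lower. MSX1 is itself on that list and chose only the TBXT and MSX1 cells, so targets that vary with it can differ through the choice. ID1 had 1491, 1411, 804 and 864 CPM in TBXT and MSX1 cells, against 606, 486, 524 and 694 CPM in SOX2 and TBXT cells (0.83 ± 0.090, SE; adjusted p = 4.79e-17). BMP2 was higher by 1.27 ± 0.26 (adjusted p = 0.000138), in 3 of 4 libraries, and BMP4 by 1.24 ± 0.25 (adjusted p = 0.000157), in 4 of 4. FGF19 was higher by 1.04 ± 0.13 (adjusted p = 2.00e-12). FGF8 (-0.30 ± 0.12; adjusted p = 0.260), WNT3A (0.092 ± 0.19; adjusted p = 0.943) and AXIN2 (-0.066 ± 0.16; adjusted p = 0.952) did not pass. Of 9 tested HOX genes of groups 7 to 13, HOXD8 was higher and HOXA7, HOXB7 and HOXB9 were lower (median log2 difference 0.21). Of 13 tested streak and caudal factors, MESP1 was higher and SP5, NKX1-2 and CDX4 were lower (median -0.12). SP8, EVX1, CDX2 and GREB1 were not among those called. Of 13 tested epithelial genes, CDH1, EPCAM and CLDN3 were higher and CLDN1 was lower.

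Lateral genes and MESP1 separated these cells as well. MESP1 had 163, 129, 41.3 and 33.4 CPM in TBXT and MSX1 cells, against 7.98, 0, 4.02 and 12.6 CPM in SOX2 and TBXT cells (2.80 ± 0.33, SE; adjusted p = 5.84e-15). By DESeq2 MESP1 did not pass (adjusted p = 0.0504), nor did KDR, given below (adjusted p = 0.0891). GATA2 had 1054 UMIs against 1 UMI in the pooled sums, a ratio of 65.2 (95% interval of counting error 11.7 to 2580), and KDR 680 UMIs against 2 UMIs, a ratio of 21.0 (5.80 to 174). CFC1 had 1914 UMIs against 3 (39.5, 13.5 to 192), and GATA5 856 against 3 (17.7, 6.02 to 85.8). The sets held different shares of each stage, which enters these pooled ratios. With the TBXT and MSX1 libraries weighted to the stage mix of the SOX2 and TBXT sums, they were 38.6 for GATA2, 11.3 for KDR, 22.2 for CFC1 and 10.0 for GATA5. All 4 were called by edgeR, but they entered the test through their counts in the TBXT and MSX1 cells. With 1 to 3 UMIs in all, each had at least 1 library with no UMI in the SOX2 and TBXT cells. The calls therefore add no support beyond the pooled counts. KDR did not pass without the 4S library (adjusted p = 0.0840). CXCL14, a chemokine, was higher by 2.76 ± 0.32 (adjusted p = 1.74e-15) and KRT7 by 2.33 ± 0.34 (adjusted p = 2.99e-09). NKX1-2 was lower by -1.52 ± 0.34 (adjusted p = 0.000849), HES5, a Notch target, by -1.42 ± 0.16 (adjusted p = 1.67e-15), CNTN2 by -1.52 ± 0.31 (adjusted p = 0.000137) and ZEB2 by -1.40 ± 0.26 (adjusted p = 1.01e-05). NKX1-2 was not called without the 13S library (adjusted p = 0.288), nor CNTN2 without the 10S library (adjusted p = 0.0779). A SOX2 UMI chose the comparison cells, so genes that vary with SOX2 can differ through that choice. CA2 was lower by -2.12 ± 0.21 (adjusted p = 2.33e-20), with 71.5, 31.2, 11.2 and 5.91 CPM against 487, 137, 36.2 and 7.86 CPM. The CA2 gap narrowed with each later library, a variation that this SE does not measure.

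Cells with at least 2 MSGN1 UMIs, no SOX2 or HAND2 UMI and under 10 of CHRD, whatever their TBXT or MSX1 count, were 4756. MSGN1 is a factor of presomitic mesoderm. Of 9800 tested genes, 11.0% were higher and 9.88% were lower in the TBXT and MSX1 cells. The 1074 higher and 968 lower calls became 623 and 550 without the 10S library. NOTO had 19.3, 20.6, 24.5 and 28.7 CPM in TBXT and MSX1 cells, against 1.56, 1.01, 1.73 and 1.23 CPM in MSGN1 cells (4.00 ± 0.17, SE; adjusted p = 2.04e-08). CLDN1 was higher by 3.64 ± 0.17 (adjusted p = 3.13e-08), CYP26A1 by 3.44 ± 0.18 (adjusted p = 8.80e-08) and PDGFA, a ligand for the PDGF receptor of mesoderm, by 2.94 ± 0.13 (adjusted p = 2.35e-08). These 4 genes did not overlap. NEFM, HES5, CLDN3 and F2RL1 completed the 8 largest rises, at 2.90, 2.90, 2.69 and 2.52. BMP targets were 9 of 12 higher and none lower, epithelial genes 7 of 13 higher and none lower, and HOX genes of groups 7 to 13 were 10 of 11 higher and none lower. HOX genes of groups 1 to 6 were 4 higher and 4 lower of 15.

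FOXC2 led the falls against MSGN1 cells (-5.28 ± 0.16, SE; adjusted p = 1.54e-09), followed by MEOX1 (-4.31 ± 0.11; adjusted p = 5.85e-10), C1QTNF12, NPY, ALDH1A2, TCF15, PTN and LBX2. PTN, the growth factor pleiotrophin, had 83.0, 105, 72.9 and 47.3 CPM in TBXT and MSX1 cells, against 622, 1238, 1049 and 1055 CPM in MSGN1 cells (-3.71 ± 0.17; adjusted p = 3.03e-08). Of 10 tested FGF ligands, 4 were higher than in MSGN1 cells and 3 were lower, FGF18 among them, with 36.5, 76.7, 75.02 and 124 CPM against 52.0, 146, 171 and 245 CPM (-0.96 ± 0.081; adjusted p = 5.47e-06). FGF8 was higher by 1.05 ± 0.10 (adjusted p = 2.03e-05) and WNT3A by 0.65 ± 0.068 (adjusted p = 3.23e-05). WNT8A was higher by 1.54 ± 0.12 (adjusted p = 3.30e-06). DLL1, higher than in other cells, was among the genes lower than in MSGN1 cells.

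Cells with at least 2 HAND2 UMIs, no SOX2 or MSGN1 UMI and under 10 of CHRD, whatever their TBXT or MSX1 count, were 276. HAND2 is a factor of lateral plate mesoderm. Of 7747 tested genes, 4.83% were higher and 4.30% were lower in the TBXT and MSX1 cells. The 374 higher and 333 lower calls became 212 and 174 without the 10S library. FGF8 had 32.8, 92.3, 148 and 200 CPM in TBXT and MSX1 cells, against 3.15, 0, 3.92 and 1.03 CPM in HAND2 cells (5.86 ± 0.33, SE; adjusted p = 5.00e-11). CYP26A1 had 1613 UMIs against 3 UMIs, a ratio of 63.7 (95% interval of counting error 21.7 to 309), and NOTO 515 against 2 UMIs, a ratio of 30.5 (8.40 to 252). SP8 was higher by 5.11 ± 0.29 (adjusted p = 6.07e-11) and CLDN1 by 4.495 ± 0.15 (adjusted p = 1.35e-14). FGF8, SP8 and CLDN1 levels stood apart in every library. FGF19 was higher by 2.70 ± 0.15 (adjusted p = 4.95e-11) and FGF18 by 3.63 ± 0.26 (adjusted p = 1.41e-09).

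BMP genes ran in both directions here. BMP4 had 34.7, 52.1, 48.7 and 59.6 CPM in TBXT and MSX1 cells, against 34.7, 94.6, 103 and 112 CPM in HAND2 cells (-0.75 ± 0.16, SE; adjusted p = 0.00275), nearly level at 4S and lower later. BMP2 did not pass (0.23 ± 0.19; adjusted p = 0.571), while ID1 was higher by 0.71 ± 0.096 (adjusted p = 1.77e-05) and MSX2 was among the lower genes. WNT5A (0.043 ± 0.096; adjusted p = 0.879) and AXIN2 (0.38 ± 0.14; adjusted p = 0.111) did not pass. Of 14 tested lateral and extraembryonic genes, 12 were lower and none higher. HAND2 chose the comparison cells and was barred from the TBXT and MSX1 cells, so genes that vary with it can differ through that choice. PRRX1 was lower by -4.04 ± 0.20 (adjusted p = 1.31e-11), OSR1 by -3.80 ± 0.29 (adjusted p = 5.66e-09) and HAND1 by -4.11 ± 0.35 (adjusted p = 2.36e-08). PERP2, MMP2, FIBIN and PITX1 were also among the 8 largest falls. PITX1, a hindlimb factor, stood at 0.902, 1.99, 3.07 and 5.91 CPM, against 1.58, 5.25, 19.6 and 142 CPM in HAND2 cells, so most of its difference lay at 13S.

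**Figure D5:**
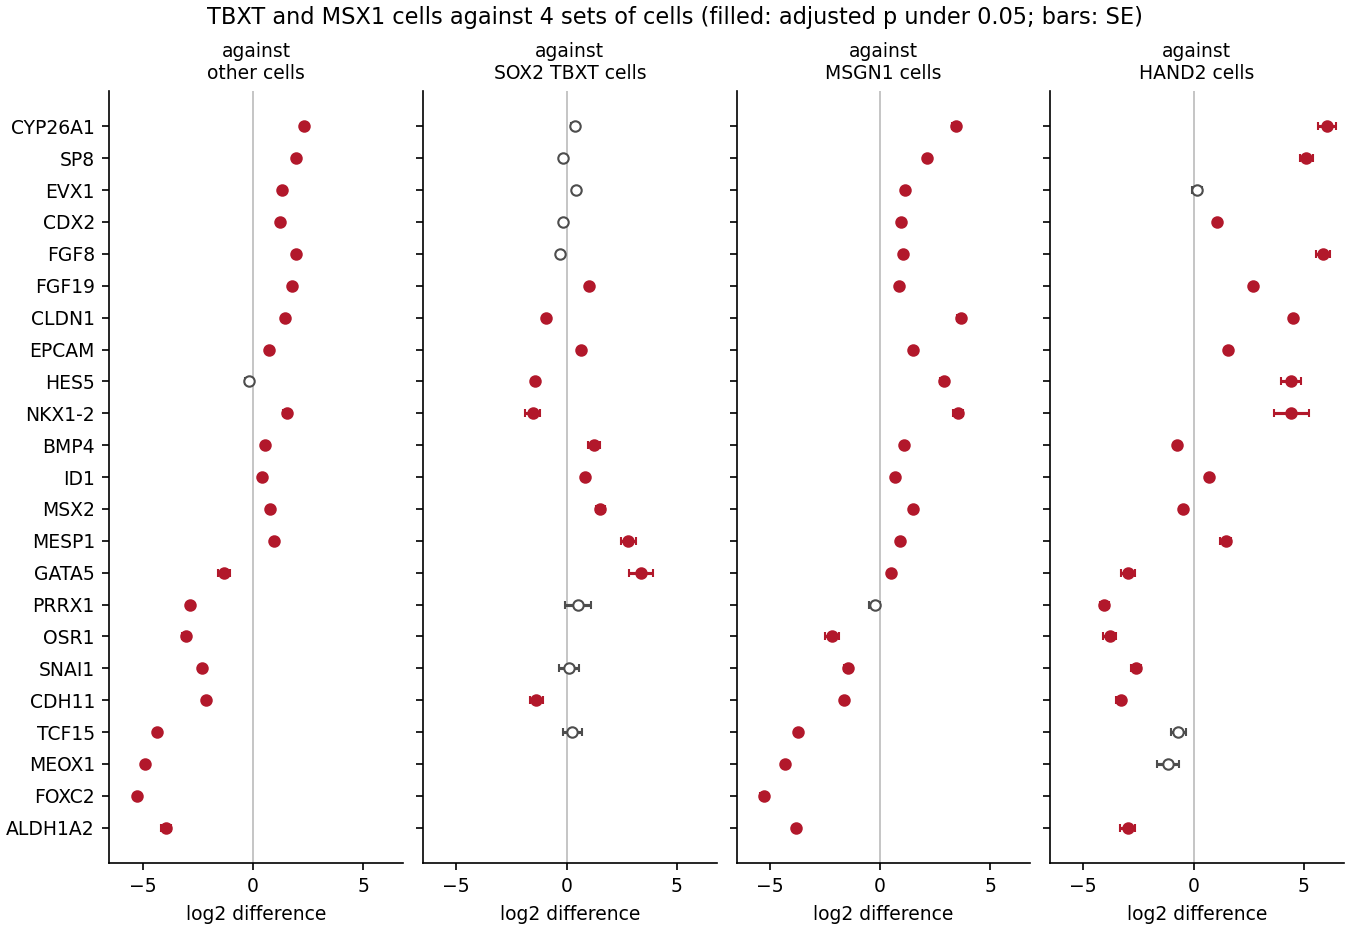
Log2 differences of 23 genes between TBXT and MSX1 cells and 4 sets of cells (columns); positive values mean higher in TBXT and MSX1 cells, bars are SE, filled points have an adjusted p under 0.05, and genes not tested are left out. FGF8 differed by 1.94 from other cells, -0.30 from SOX2 TBXT cells, 1.05 from MSGN1 cells and 5.86 from HAND2 cells, and FOXC2 by -5.24 and -5.28 from other cells and MSGN1 cells.

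The 4 comparisons share the same TBXT and MSX1 sums, and the 3 neighbouring sets are part of the other cells, so they are not independent of each other. In all of them the 6 rule genes were left untested. Genes outside the rule were measured in the same cells, so a gene that varies with any of the 6 rule genes from cell to cell can differ through the choice itself. This holds for the neighbouring sets too, since each was chosen by a gene that the rule excludes.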

How the data were processed

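Droplet single-cell RNA libraries of chick trunk, 1 per stage, were analysed. The authors aligned reads to GRCg6a with CellRanger (Cell Ranger 4.0.0 in the submitters' processing notes), counted UMIs over exons and introns with DropEst, and filtered cells by mitochondrial share, total counts and doublet score. The deposited values are UMI counts per gene and cell, not normalized. Doublets were removed before deposit and no caller was run here. Reads from overlapping or near-identical genes may be shared.

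Cells with at least 2500 UMIs were kept and the rule was applied to their counts. Counts were summed per library and set of cells, giving 8 sums per comparison, and tested with edgeR 4.0.16 in R 4.3.3 (quasi-likelihood F test, TMM, filterByExpr, library as a block, 3 residual degrees of freedom) with Benjamini-Hochberg adjustment over all tested genes at 0.05. The somite trend was the interaction of set and somite number. SEs are the absolute log2 difference divided by the square root of F. Thinning drew 2500 UMIs per cell (seed 1). Tables were handled with pandas 2.3.3 and intervals computed with scipy 1.17.1.

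The members and gene lists were chosen with earlier results of these data known. The text names the rule genes and label markers, fixed ligands and targets, up to 5 called genes per list with at least 20 CPM in the higher group, the 12 largest rises and falls against other cells and 8 against each neighbouring set in 4 of 4 libraries, the 6 largest by stage and by trend, and HOX genes. Rankings of rises, falls and trends covered only genes with a symbol, and 8937 of the 21328 listed genes carried an Ensembl identifier instead. Other named genes were chosen after their values were seen. The share of all tested genes whose levels did not overlap between sets of cells is not given. Statements on overlap therefore describe single genes only. Tested on simulated counts against other cells (11509 genes), the fit recovered 86% of genes changed 2-fold and 26% of those changed 1.5-fold, with 6 false calls. Against SOX2 and TBXT cells (7460 genes) it recovered 48% and 20%, with 3 false calls. The simulation gave every gene a dispersion of 0.02 and each changed gene the same fold in every library, which real genes need not follow. Alternatives were DESeq2 1.42.0, no count filter, thinned counts, depth-matched comparison cells, stricter and looser rules, no library block, a mitochondrial maximum of 7.5% (which left out 0 cells), and leaving out each library. The libraries carry a number per stage only, and the 2 sums of a library share their embryos, which is why the library is the block. Some results are not reported here.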

Additional observations from a re-analysis of the deposited data

Results flagged for a closer look

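Among 4 libraries, 1 lay far from the others in the log2 ratio of TBXT and MSX1 cells to other cells for 7 named genes. Chance gives such a gap in about 1 in 20 sets of 4. The screen covered the named genes of the 4 comparisons with enough counts, drawn from the 164 single-gene results counted below. Several such gaps would therefore arise by chance. FGF8 had 1.17 at 4S, against 1.98 to 2.103 at the other stages, and FGF3 had 1.19 at 4S, against 1.80 to 1.92. BMP7 had 1.03 at 7S, against 0.71 to 0.73. CLDN1 had 0.82 at 13S, against 1.53 to 1.63, and RAI14 had 2.004 at 10S, against 1.63 to 1.67. MCM2 had 0.26 at 4S, against 0.075 to 0.085, and JUN had -0.37 at 4S, against -0.84 to -0.80.

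For 41 named genes the ratio of TBXT and MSX1 cells to other cells shifted with somite number at an adjusted p under 0.05 (edgeR, interaction term). Of all 11385 tested genes, 0.659% rose and 1.09% fell in this test. Some of the 41 were named because of this test or of their change by stage. Their number is therefore partly set by that choice and is no result about the named genes. Each value below is the change of the log2 ratio over 9 somites. Among signalling genes, WNT5A shifted by 0.67, FGF19 by 0.91, BAMBI by 0.89, ID4 by 0.53, MSX2 by 0.66, FSTL1 by -0.53 and FGFR3 by -2.36. Among retinoic acid genes, CYP26A1 shifted by 1.00, ALDH1A2 by -2.32, DHRS3 by -2.12 and RDH10 by -1.12. Among HOX genes, HOXA7 shifted by -1.16, HOXC8 by -1.58, HOXB8 by -1.18, HOXB9 by -0.90, HOXB7 by -0.72 and HOXB5 by -0.71. Of genes known from blood, endothelium or lateral mesoderm, LMO2 shifted by -2.28, ETS1 by -2.63, EGFL7 by -1.42, GATA5 by -2.44 and GATA2 by -1.10. Other falls were CA2 by -4.01, FABP3 by -3.45, KRT7 by -1.75, PTN by -1.65, CLEC19A by -1.19, FN1 by -0.79, APOH by -2.51, FIBIN by -1.75, PDGFA by -1.51, NOXO1 by -1.32 and CXCL14 by -1.27. Other rises were NEFM by 2.53, POSTN by 2.36, GNG10 by 1.19, NOTO by 2.06, NTM by 1.76, RASGRP3 by 1.40, DACH1 by 1.23 and MID1IP1 by 1.00.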

How the results depend on the processing

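Of 164 single-gene results, 86 kept their direction and side of the threshold in every alternative that gave them a value, 78 lost the call in at least 1, and 0 reversed. An alternative gave a value for 116 to 164 of them, the fewest under the rule on thinned counts. The mitochondrial maximum left out 0 cells and could change nothing. Leaving the library block out lost 78 calls, since stage differences then enter the spread. It gave 78 genes higher and 277 lower against other cells, 0 and 0 against SOX2 and TBXT cells (85 and 57 by edgeR with the block, 23 and 22 by DESeq2), 187 and 161 against MSGN1 cells, and 122 and 120 against HAND2 cells. Thinned sums gave 559 higher and 637 lower against other cells, 20 and 11 against SOX2 and TBXT cells, 594 and 542 against MSGN1 cells, 185 and 165 against HAND2 cells, and 47 rising and 66 falling ratios in the somite trend. DESeq2 gave 599 and 512 against MSGN1 cells, 224 and 221 against HAND2 cells, and 31 rising and 60 falling ratios, against 75 and 124 by edgeR. No count filter gave 232 higher against SOX2 and TBXT cells, 641 higher against HAND2 cells, and 136 rising and 264 falling ratios. Comparison cells of matched depth gave 47 and 24 against SOX2 and TBXT cells. The rule on thinned counts, chosen after seeing the data, gave 603 higher against other cells. Leaving out 1 library gave 431 to 848 higher and 578 to 1055 lower against other cells, 52 to 81 and 29 to 44 against SOX2 and TBXT cells, 623 to 1169 and 550 to 1141 against MSGN1 cells, and 212 to 377 and 174 to 355 against HAND2 cells. At 4S, 7S, 10S and 13S the share of TBXT and MSX1 cells was 6.36%, 7.51%, 3.21% and 3.28% on thinned counts, 11.65%, 7.41%, 7.20% and 7.47% under the stricter rule, and 19.3%, 17.8%, 14.9% and 14.2% under the looser rule. The SOX2 and TBXT set had 12 cells at 4S, which limits its counts. Where no construction of the alternative gives the reason, the cause was not tested.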
